A study of Homo sapiens with 12 samples.

Results

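The genes described here are 55 members of the interferon response and of the class I antigen presentation pathway, chosen by symbol and measured in LNCaP cells on 12 Affymetrix expression arrays. LNCaP is an androgen-sensitive line from a human prostate adenocarcinoma. Of the 55 listed genes, 53 had a probe set with 1 gene symbol, and 42 passed a filter on low values and were tested among 10265 genes in all. A probe set is a group of short probes on the array that measures one transcript, and the highest-mean probe set that passed stood for a gene. Its value is a log2 signal, so that a difference of 1 is a 2-fold difference. STAT2 and PSME2 were not analysed here.

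Cells of all 4 groups were kept without androgen for 48 h and then transfected, and treatment began 42 h later and lasted 48 h. The first group received siRNA against serum response factor (SRF) and 5 nM R1881, a synthetic androgen. The second received SRF siRNA and ethanol vehicle, the third control siRNA and R1881, and the fourth control siRNA and vehicle. Each group had 3 arrays, called biological replicates in the labels, which do not say whether they were separate cultures, so that the tests weigh changes against the scatter of these arrays, some of which may be technical. The model is 1 cell line, the siRNA sequences are not given in the sources used here, and SRF was lowered, not removed. The series asked which genes depend on both SRF and androgen.

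Interferons are secreted proteins that cells release on sensing viral nucleic acid. They bind receptors coupled to JAK kinases, and STAT proteins together with IRF9 then bind an element called ISRE in the promoters of interferon-stimulated genes. Interferon gamma acts through STAT dimers that bind a different element, GAS, and through IRF1. The products of these genes bind viral RNA, block translation, degrade RNA or attach the ubiquitin-like protein ISG15 to other proteins. Another set makes peptides with the immunoproteasome, moves them into the endoplasmic reticulum through TAP1 and TAP2, and loads them on class I HLA molecules with beta-2-microglobulin.

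Promoter sequences show what most of these genes share apart from their expression. Of the 55 members, 47 had 1 or more promoters in the RefSeq table (GRCh38.p14), each running from 250 bases before a start site to 50 bases after it. The ISRE core, searched on both strands as GAAA, any 2 bases and GAAA, occurred in 37 of the 64 member promoters (57.8%) and in 1255 of all 35116 promoters in the table (3.57%). The GAS letters TTCNNNGAA, also on both strands, occurred in 13 of the 64 (20.3%), against 7.66% of all promoters, and overlapped an ISRE core in 4 member promoters. The CArG box, the element that SRF binds, occurred in 2 member promoters, those of GBP1 and ISG15, against 1.29% of all promoters. A match is a description of the letters and does not show binding.

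The promoters of 6 genes named in the results are printed, and no expression result rests on these sequences. IFIT1 and IFIT3 are antiviral genes that R1881 moved in opposite directions with and without SRF silencing. IFI27 and TAP2 had the largest fitted increases with SRF siRNA in R1881. GBP3 and GBP1 are guanylate-binding protein genes of 1 family, shown since the fitted differences of their R1881 effects had opposite signs; that of GBP1 is a description, as given with its levels. The regions, all from RefSeq in GRCh38.p14, are chr10:89392373-89392672 on the plus strand for IFIT1, chr10:89332279-89332578 on the plus strand for IFIT3 and chr14:94110486-94110785 on the plus strand for IFI27. They are chr6:32838690-32838989 on the minus strand for TAP2, chr1:89022817-89023116 on the minus strand for GBP3 and chr1:89065159-89065458 on the minus strand for GBP1. Each is written 5′ to 3′ along its gene, and capitals mark every ISRE core on either strand.
IFIT1: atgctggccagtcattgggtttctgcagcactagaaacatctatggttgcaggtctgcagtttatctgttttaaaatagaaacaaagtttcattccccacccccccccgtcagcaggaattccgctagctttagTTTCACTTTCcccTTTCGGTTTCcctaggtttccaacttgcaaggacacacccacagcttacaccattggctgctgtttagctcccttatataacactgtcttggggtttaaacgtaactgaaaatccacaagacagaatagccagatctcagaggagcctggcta
IFIT3: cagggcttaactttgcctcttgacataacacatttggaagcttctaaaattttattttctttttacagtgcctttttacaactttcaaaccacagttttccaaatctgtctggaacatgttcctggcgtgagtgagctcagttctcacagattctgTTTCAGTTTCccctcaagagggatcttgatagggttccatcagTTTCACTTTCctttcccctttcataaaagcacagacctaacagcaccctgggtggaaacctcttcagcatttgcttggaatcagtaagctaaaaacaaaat
IFI27: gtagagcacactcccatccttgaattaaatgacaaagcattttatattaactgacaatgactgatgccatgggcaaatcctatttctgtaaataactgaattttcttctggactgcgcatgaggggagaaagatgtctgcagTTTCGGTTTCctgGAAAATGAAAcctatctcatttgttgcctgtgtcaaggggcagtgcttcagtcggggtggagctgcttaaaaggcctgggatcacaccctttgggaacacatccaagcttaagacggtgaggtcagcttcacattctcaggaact
TAP2: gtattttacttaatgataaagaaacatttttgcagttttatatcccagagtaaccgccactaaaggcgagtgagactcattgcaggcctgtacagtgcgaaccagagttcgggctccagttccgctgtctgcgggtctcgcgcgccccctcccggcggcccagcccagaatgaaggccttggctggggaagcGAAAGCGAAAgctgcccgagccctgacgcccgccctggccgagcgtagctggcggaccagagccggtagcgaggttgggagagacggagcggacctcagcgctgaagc
GBP3: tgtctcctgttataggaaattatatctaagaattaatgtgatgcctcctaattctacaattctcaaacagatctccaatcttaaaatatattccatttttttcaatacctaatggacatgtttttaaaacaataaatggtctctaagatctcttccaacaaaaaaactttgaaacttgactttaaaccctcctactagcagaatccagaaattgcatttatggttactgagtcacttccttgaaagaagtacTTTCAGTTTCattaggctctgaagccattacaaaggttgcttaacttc
GBP1: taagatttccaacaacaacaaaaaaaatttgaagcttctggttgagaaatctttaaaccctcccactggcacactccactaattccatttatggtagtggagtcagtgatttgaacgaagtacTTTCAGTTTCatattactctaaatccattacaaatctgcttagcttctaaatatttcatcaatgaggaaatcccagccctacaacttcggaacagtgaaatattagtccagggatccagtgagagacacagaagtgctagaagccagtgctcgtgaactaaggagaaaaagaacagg

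The IFIT1, IFIT3 and IFI27 promoters each hold 2 ISRE cores, and those of TAP2, GBP3 and GBP1 hold 1. In the IFIT1 promoter the cores begin 116 and 103 bases before the start site, and in the IFIT3 promoter 94 and 51 bases before it. In the GBP1 promoter the core begins 127 bases before the start site. GBP2 had no promoter in the table.

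SRF itself was lower on every array with SRF siRNA. Its log2 level was 4.89, 4.98 and 4.73 in SRF-silenced R1881 cells, 4.56, 5.06 and 4.58 in SRF-silenced vehicle cells, 6.50, 6.25 and 6.16 in control R1881 cells and 5.91, 6.14 and 6.17 in control vehicle cells. Array medians ran from 2.97 to 3.06, and arrays of 1 group correlated at 0.996 to 0.998. All 8 luminal prostate markers with a probe set were above a log2 value of 4 on at least 3 arrays, which goes with the LNCaP label. None of 8 leukocyte markers and none of 5 dendritic cell markers passed that filter. Of the other lists, 2 of 7 fibroblast, 1 of 4 endothelial and 1 of 5 basal or mesenchymal markers passed it. The highest values in those lists were 8.06, 6.23 and 8.42. The pan-leukocyte gene PTPRC lay at 3.01 to 3.21 on the 12 arrays. The mean of the leukocyte list ran from 2.64 to 2.86 on SRF-silenced R1881 arrays, 2.53 to 2.56 on SRF-silenced vehicle arrays, 2.52 to 2.57 on control R1881 arrays and 2.50 to 2.57 on control vehicle arrays. LYZ, which encodes lysozyme, had the highest value of that list, with 3.88, 3.53 and 4.69 on the SRF-silenced R1881 arrays and at most 2.95 elsewhere.

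**Figure D1:**
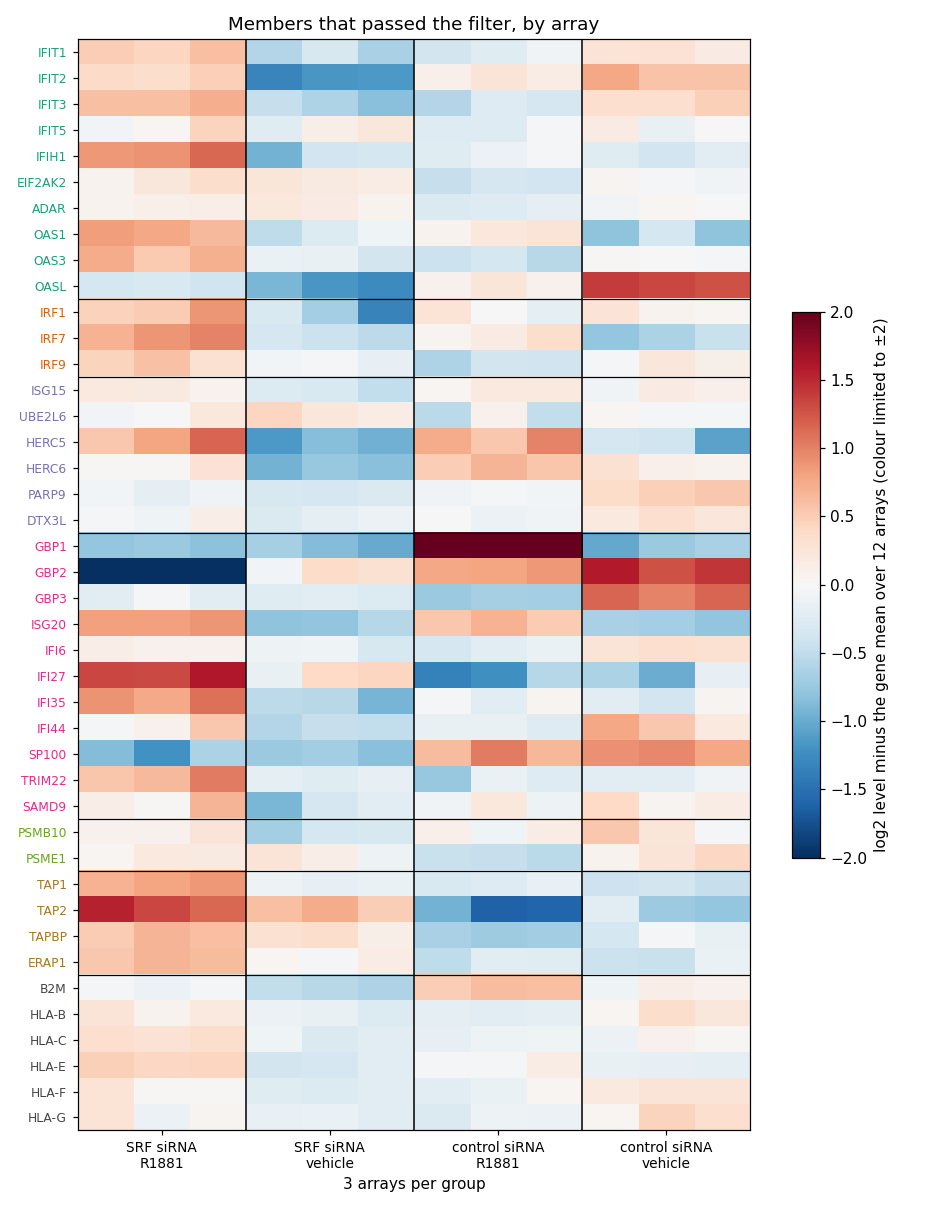
Log2 signal of the 42 tested members (rows, grouped by role) on the 12 arrays (columns, by group), shown as the difference from each gene's mean over the arrays. The SRF-silenced R1881 arrays are above the mean for most members, and GBP1, GBP2, SP100 and OASL are among those below it.

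With SRF silenced, R1881 raised most of the tested members; with control siRNA it lowered more of them than it raised. In SRF-silenced cells 32 of 42 were higher with R1881 and 1 was lower, at a limma adjusted p under 0.05 with Benjamini-Hochberg adjustment over all genes tested. Among all genes 25.5% were called higher and 27.7% lower in that comparison. The change was at least 2-fold as well for 11 higher and 1 lower, where 10.7% of all genes passed both rules in either direction. The median log2 change of the members was 0.58, against -0.03 over all genes. In control siRNA cells 9 members were higher and 20 lower, where 26.9% and 33.8% of all genes were called. The members' shares were 21.4% higher and 47.6% lower, and their median change was -0.28, against -0.05 over all genes. With the 2-fold rule 3 members were higher and 2 lower, against 14.1% of all genes in either direction. The 9 (21.4%) and the 3 include GBP1, which passed the filter through the control R1881 arrays alone, so that its call is no test. In bulk RNA a lower level in each cell and fewer cells with the transcript cannot be told apart.

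The difference of the R1881 effects, SRF-silenced minus control, was tested directly. It was above 0 for 32 of 42 members and below 0 for 2, against 13.2% and 10.5% of all genes. Of those below 0, GBP1 passed the filter through the control R1881 arrays alone and had to differ, which leaves GBP2. The difference was also at least 2-fold for 14 above 0 and 2 below 0, against 5.01% of all genes. The median difference was 0.74 on the log2 scale, and 0.03 over all genes. For 14 members both effects were called and their signs were opposite, lower with R1881 in control cells and higher in SRF-silenced cells. That joint pattern held for 99 of all genes, or 0.964%. The 14 were the antiviral genes IFIT1, IFIT2, IFIT3, OAS3 and OASL, IRF9, the ligase pair PARP9 and DTX3L, the interferon-induced genes IFI6 and IFI44, and TAP2, TAPBP, HLA-B and HLA-F. A further 8 members rose with R1881 under both siRNAs, against 18.3% of all genes, which is close to the members' share. By the call rule 10 rose in SRF-silenced cells and not in control cells, against 6.22% of all genes, and 5 fell in control cells and were not called in silenced cells, against 11.2%, again close to the members' share. GBP2 fell in both, though its call in control cells was lost with the RNA quality covariate (limma adjusted p = 0.22), GBP1 was above the filter in control R1881 cells alone, and IFIT5, SP100 and UBE2L6 were called in neither. Some of these calls were near the threshold. When each of the 12 arrays was left out in turn, the R1881 call in silenced cells was lost in 9 fits for DTX3L, 2 for PARP9 and 1 for IFI6, with limma adjusted p-values of up to 0.283, 0.0659 and 0.0772 over all alternatives. In control cells the call was lost in 9 of these fits for TAP1 and 8 for HLA-E. Without the third array of both silenced groups, the call in silenced cells was lost for TAPBP, at 0.27 (limma adjusted p = 0.074), and HLA-B, at 0.30 (limma adjusted p = 0.0531), as well as for DTX3L, PARP9 and IFI6. With an RNA quality measure described after the gene groups as a covariate, the call in control cells was lost for OAS3, IRF9, TAP2 and HLA-F among the 14, where TAP2 moved to -0.25 (limma adjusted p = 0.577), and for OAS1, HERC5, HERC6, TAP1 and HLA-E among the 8. In silenced cells it was lost there for DTX3L, PARP9 and TAPBP. With passing probe sets tested separately, TAPBP, HLA-B and HLA-F each had another one that lacked the call in silenced cells. For TAPBP this held in control cells too. Of the 10 that rose in silenced cells only, IRF1 and HLA-C each had another passing probe set that was called in control cells, that of IRF1 higher.

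**Figure D2:**
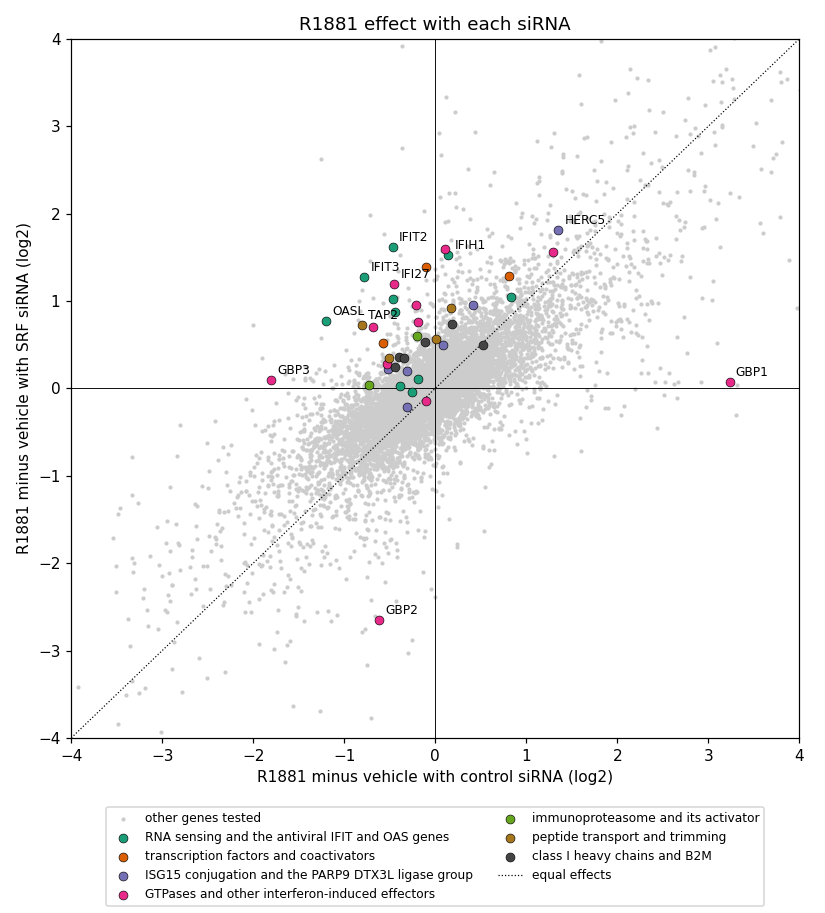
R1881 minus vehicle on the log2 scale in SRF-silenced cells (vertical axis) and in control siRNA cells (horizontal axis), with members coloured by role, all other genes tested in grey and points beyond the axes not drawn. Most members lie above the line of equal effects, and GBP1 and GBP2 lie far below it.

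**Figure D3:**
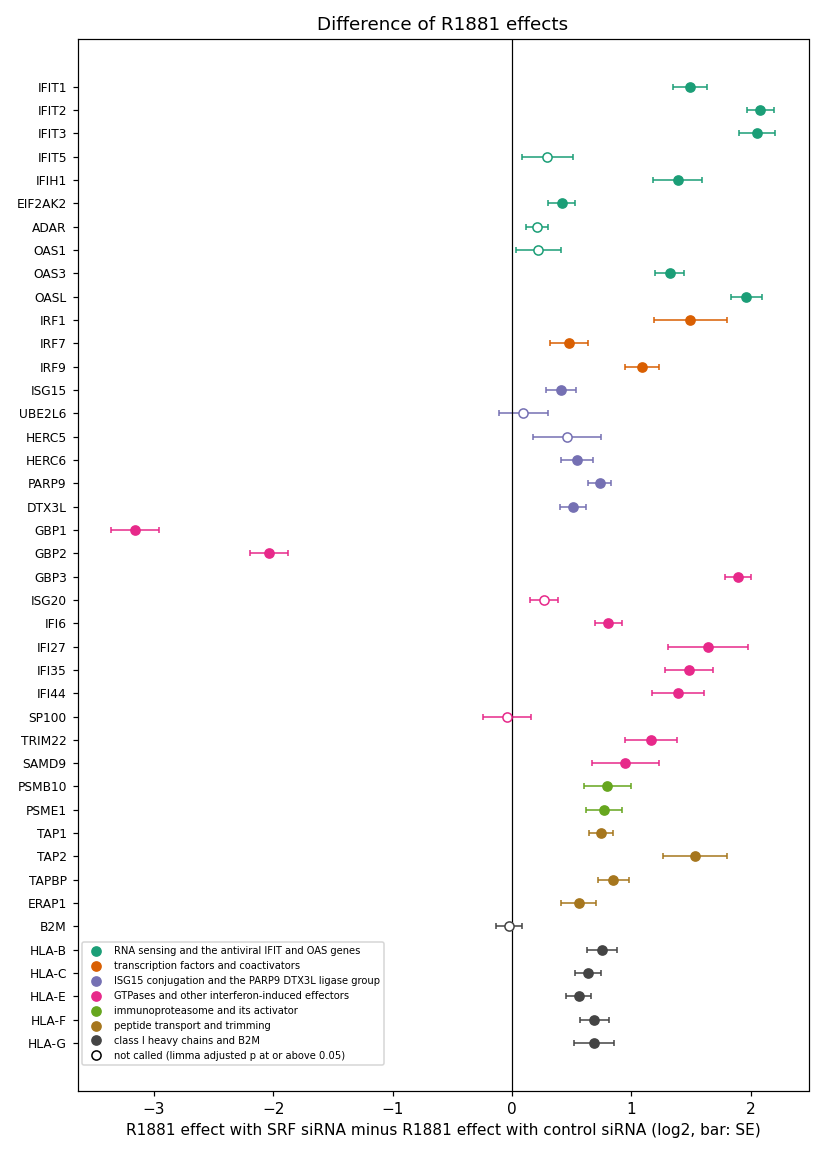
Difference of the R1881 effects, SRF-silenced minus control, for each tested member on the log2 scale, with the standard error as a bar and open circles where the limma adjusted p was at or above 0.05. The differences run up to 2.08 for IFIT2, and GBP2 lies at -2.04; GBP1, farther left, passed the filter through control R1881 arrays alone.

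Of the IFIT family, antiviral effectors that bind viral RNA, IFIT2 and IFIT3 had the largest differences of any tested member, and IFIT5 did not pass. IFIT2 had log2 levels of 8.62, 8.59 and 8.71 in SRF-silenced R1881 cells, 6.91, 7.08 and 7.09 in SRF-silenced vehicle cells, 8.35, 8.49 and 8.39 in control R1881 cells and 9.01, 8.80 and 8.82 in control vehicle cells. Its 3 SRF-silenced vehicle arrays were lower than all others, by more than the spread within any group. R1881 changed it by 1.62 ± 0.08 (SE) in silenced cells (limma adjusted p = 9.86e-09) and by -0.47 ± 0.08 in control cells (limma adjusted p = 0.000352), and the difference was 2.08 ± 0.12 (limma adjusted p = 2.93e-07).

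IFIT3 had 8.84, 8.84 and 8.95 in SRF-silenced R1881 cells, 7.78, 7.62 and 7.40 in SRF-silenced vehicle cells, 7.65, 7.97 and 7.89 in control R1881 cells and 8.57, 8.56 and 8.71 in control vehicle cells. Here the SRF-silenced R1881 and the control vehicle arrays were the high ones, and the other 6 arrays were low. The difference of its R1881 effects was 2.06 ± 0.15 (SE, limma adjusted p = 2.5e-06). IFIT1 followed the same order, with group means of 8.83 ± 0.09, 7.81 ± 0.17, 8.10 ± 0.15 and 8.57 ± 0.07 (SD, n = 3 each) in SRF-silenced R1881, SRF-silenced vehicle, control R1881 and control vehicle cells, and a difference of 1.49 ± 0.14 (SE). IFIT5 did not pass in any comparison with the probe set that stood for it, and its levels ran between 5.69 and 6.40 on the 12 arrays with overlap between all groups. With its 2 passing probe sets tested separately, only one of them was called for SRF siRNA in R1881.

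The 2-5A synthetase family makes the messenger that activates RNase L, and its members did not move alike. OASL, a family member without that enzyme activity, had 7.34, 7.39 and 7.29 in SRF-silenced R1881 cells, 6.77, 6.52 and 6.41 in SRF-silenced vehicle cells, 7.78, 7.93 and 7.78 in control R1881 cells and 9.08, 9.03 and 8.97 in control vehicle cells. No 2 groups overlapped, and both SRF-silenced groups lay below both control groups. Its R1881 effect was 0.77 ± 0.09 (SE) in silenced cells and -1.20 ± 0.09 in control cells, a difference of 1.96 ± 0.13 (limma adjusted p = 1e-06).

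OAS3 had a difference of 1.32 ± 0.12 (SE, limma adjusted p = 1.79e-05) and was highest in SRF-silenced R1881 cells, at 7.16 ± 0.12, against 6.29 ± 0.13, 6.06 ± 0.10 and 6.51 ± 0.02 in SRF-silenced vehicle, control R1881 and control vehicle cells (SD, n = 3 each). OAS1 rose with R1881 under both siRNAs, by 1.05 ± 0.13 (SE) in silenced and 0.83 ± 0.13 in control cells, and the difference of 0.22 ± 0.19 did not pass (limma adjusted p = 0.443). A second OAS1 probe set gave 0.62 ± 0.30 for that difference and did not pass either. OAS2 lay below the filter on all arrays, at 3.66, 3.87 and 2.94 in SRF-silenced R1881 cells and 2.18 to 2.47 elsewhere. In a fit without the filter its R1881 effect in silenced cells was 1.07 (limma adjusted p = 0.00224), between levels near background.

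Among the RNA sensors, IFIH1, which encodes MDA5, a cytoplasmic receptor for double-stranded RNA, had 7.47, 7.48 and 7.75 in SRF-silenced R1881 cells, 5.65, 6.21 and 6.24 in SRF-silenced vehicle cells, 6.34, 6.47 and 6.55 in control R1881 cells and 6.35, 6.22 and 6.38 in control vehicle cells. The SRF-silenced R1881 arrays stood above the other 9, and the other 3 groups lay close together. R1881 raised IFIH1 by 1.53 ± 0.14 (SE) in silenced cells, while the change in control cells was 0.14 ± 0.14 (limma adjusted p = 0.408). EIF2AK2, which encodes the kinase PKR that stops translation, and ADAR, which edits double-stranded RNA, fell with R1881 in control cells by 0.39 ± 0.08 and 0.25 ± 0.06 (SE). The differences of effects were 0.42 ± 0.11 for EIF2AK2 (limma adjusted p = 0.0205, and up to 0.0833 over the alternatives, among them the fit without control R1881 replicate 1) and 0.21 ± 0.09 for ADAR (limma adjusted p = 0.13). TLR3, the endosomal receptor for double-stranded RNA, lay below the filter at 3.29 to 3.48.

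All 3 transcription factor genes tested had a difference above 0 and rose with R1881 in silenced cells. IRF1, an activator of interferon-stimulated and class I genes, had 5.95, 5.99 and 6.37 in SRF-silenced R1881 cells, 5.17, 4.81 and 4.15 in SRF-silenced vehicle cells, 5.75, 5.49 and 5.28 in control R1881 cells and 5.75, 5.55 and 5.53 in control vehicle cells. The 2 control groups overlapped, and the SRF-silenced groups lay above and below them. The difference of R1881 effects was 1.50 ± 0.31 (SE, limma adjusted p = 0.00423). A second, dimmer IRF1 probe set had a difference of -0.17 ± 0.15 and did not pass, so the result rests on 1 of 2 probe sets. That second probe set was called higher with R1881 under both siRNAs.

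IRF7, which drives interferon alpha genes, rose with R1881 by 1.29 ± 0.11 (SE) in silenced and by 0.81 ± 0.11 in control cells, and the difference of 0.48 ± 0.16 passed at a limma adjusted p of 0.0452. That call was lost in 8 of the 12 fits that left out 1 array, with a limma adjusted p of up to 0.179 over all alternatives. IRF9, the DNA-binding partner of STAT proteins at the ISRE, had 6.73 ± 0.14 in SRF-silenced R1881, 6.20 ± 0.08 in SRF-silenced vehicle, 5.83 ± 0.13 in control R1881 and 6.40 ± 0.13 in control vehicle cells (SD, n = 3 each). Its R1881 effect was 0.52 ± 0.10 (SE) in silenced and -0.57 ± 0.10 in control cells. NLRC5, the coactivator of class I genes, lay below the filter at 2.13 to 2.27.

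In the ISG15 conjugation group, R1881 raised HERC5, the main ISG15 ligase, under both siRNAs. HERC5 had 6.44, 6.68 and 7.06 in SRF-silenced R1881 cells, 4.75, 5.05 and 4.94 in SRF-silenced vehicle cells, 6.63, 6.44 and 6.89 in control R1881 cells and 5.57, 5.50 and 4.83 in control vehicle cells. Both R1881 groups lay above both vehicle groups and overlapped each other. The changes with R1881 were 1.81 ± 0.20 (SE) in silenced and 1.35 ± 0.20 in control cells, and their difference of 0.46 ± 0.29 did not pass (limma adjusted p = 0.282). The GAPDH 3′ minus 5′ measure of RNA quality did not overlap between the control groups, and with it as a covariate the change in control cells was 0.79 and was not called (limma adjusted p = 0.0984).

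ISG15 itself was among the brightest members, with mean levels of 11.15 ± 0.07 in SRF-silenced R1881, 10.66 ± 0.12 in SRF-silenced vehicle, 11.15 ± 0.09 in control R1881 and 11.07 ± 0.13 in control vehicle cells (SD, n = 3 each). The SRF-silenced vehicle group lay below the other 3. The difference of R1881 effects, 0.41 ± 0.12 (SE, limma adjusted p = 0.0325), was lost in 6 of the 12 fits that left out 1 array. UBE2L6, the conjugating enzyme for ISG15, did not pass for R1881 under either siRNA, and its difference was 0.09 ± 0.21 (SE, limma adjusted p = 0.787). PARP9 and DTX3L, which form a complex with ubiquitin ligase activity, had differences of 0.74 ± 0.10 and 0.51 ± 0.11 (SE). Their R1881 effects in silenced cells were small, at 0.22 ± 0.07 and 0.20 ± 0.08. PARP14 lay below the filter.

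The guanylate-binding proteins, interferon-induced GTPases that attack vacuoles of intracellular pathogens, did not move together. GBP1 had 3.44, 3.47 and 3.38 in SRF-silenced R1881 cells, 3.54, 3.33 and 3.20 in SRF-silenced vehicle cells, 6.98, 6.45 and 6.50 in control R1881 cells and 3.19, 3.47 and 3.56 in control vehicle cells. It was thus above the filter in the control R1881 group alone, passed the filter through that group, and lay near the array background in the other 3. Since the filter chose it by that group, the fit of GBP1 is no test of the R1881 effect in control cells or of the difference, and the levels are given as a description. They are those of the brightest of its 3 passing probe sets. Tested separately, the 3 did not give the same call for SRF siRNA in vehicle.

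GBP2 had 4.77, 4.64 and 4.61 in SRF-silenced R1881 cells, 7.06, 7.49 and 7.43 in SRF-silenced vehicle cells, 7.90, 7.90 and 7.99 in control R1881 cells and 8.71, 8.39 and 8.55 in control vehicle cells. The 4 groups did not overlap, and the SRF-silenced R1881 group was lowest by far. R1881 changed GBP2 by -2.65 ± 0.11 (SE) in silenced cells, the only member called lower there, and by -0.62 ± 0.11 in control cells.

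GBP3 had 5.88, 6.09 and 5.91 in SRF-silenced R1881 cells, 5.87, 5.89 and 5.84 in SRF-silenced vehicle cells, 5.37, 5.45 and 5.43 in control R1881 cells and 7.28, 7.10 and 7.28 in control vehicle cells. The control vehicle arrays were the high ones, and the 2 SRF-silenced groups overlapped. R1881 changed GBP3 by 0.09 ± 0.08 (SE, limma adjusted p = 0.335) in silenced cells and by -1.81 ± 0.08 (limma adjusted p = 1.51e-09) in control cells, and the difference was 1.90 ± 0.11.

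**Figure D4:**
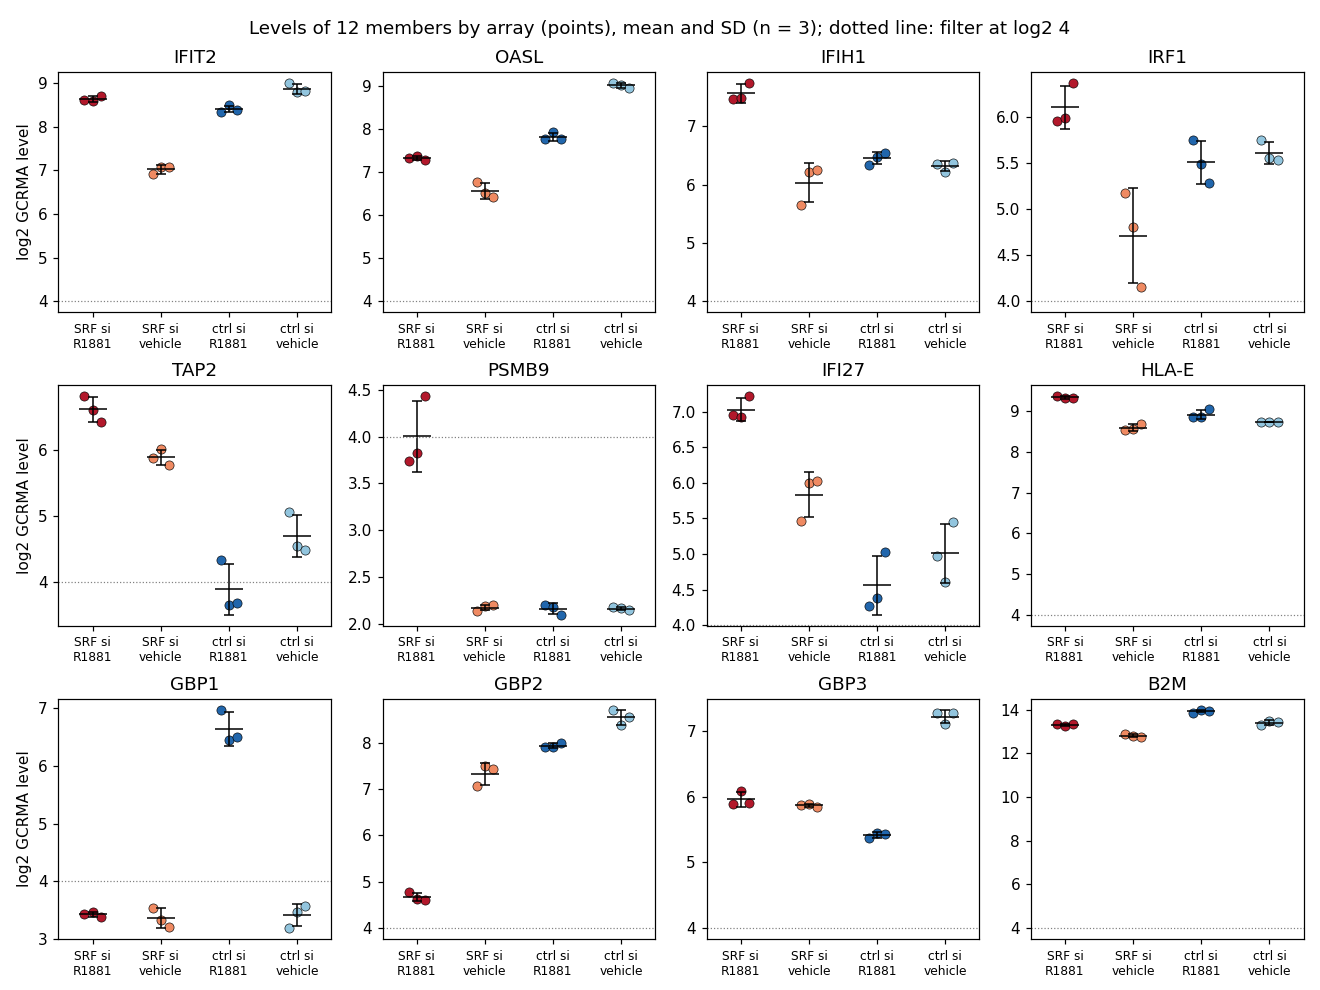
Log2 signal on each array for members named in the text, one panel per gene, with groups from left to right SRF-silenced R1881, SRF-silenced vehicle, control R1881 and control vehicle; points are arrays, horizontal bars are group means, whiskers are SDs (n = 3) and the dotted line marks a log2 value of 4. GBP1 is high in control R1881 cells alone, and GBP2 is lowest in SRF-silenced R1881 cells.

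Of the other interferon-induced effectors, IFI27, an interferon alpha-inducible gene, had 6.95, 6.92 and 7.22 in SRF-silenced R1881 cells, 5.46 to 6.03 in SRF-silenced vehicle cells, 4.26, 4.39 and 5.03 in control R1881 cells and 4.97, 4.61 and 5.44 in control vehicle cells. The control groups overlapped, and both SRF-silenced groups were above them. The difference of its R1881 effects was 1.65 ± 0.34 (SE, limma adjusted p = 0.00405). IFI35 rose by 1.59 ± 0.14 (SE) with R1881 in silenced cells, against 0.11 ± 0.14 in control cells (limma adjusted p = 0.524). ISG20, an RNA exonuclease, rose under both siRNAs, by 1.56 ± 0.08 (SE) in silenced and 1.29 ± 0.08 in control cells, and the difference of 0.27 ± 0.12 did not pass (limma adjusted p = 0.119).

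IFI44 and IFI6 were lower with R1881 in control cells and higher in silenced cells, with differences of 1.39 ± 0.22 and 0.81 ± 0.11 (SE). The differences were 1.16 ± 0.22 for TRIM22, an antiviral ubiquitin ligase, and 0.95 ± 0.28 for SAMD9, whose call was lost in 5 of the 12 fits that left out 1 array. Outside the SRF-silenced R1881 arrays TRIM22 lay near the filter, at 3.60 to 4.28, so the size of its difference is not firm. SP100, a component of nuclear bodies, did not pass for R1881 under either siRNA and had a difference of -0.04 ± 0.20 (SE, limma adjusted p = 0.906). Its second probe set had a difference of 0.68 ± 0.19, which passed, so the 2 SP100 probe sets did not give the same call. BST2, MX1, IFI16 and IFI44L lay below the filter, at 2.09 to 3.15 on all arrays.

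Turning to antigen presentation, all 4 tested genes of the peptide transporter group were called higher with SRF siRNA in R1881, and higher with R1881 in silenced cells. They were called higher with SRF siRNA in vehicle too, but only TAP2 kept that call with RNA quality as a covariate. With passing probe sets tested separately, another one of ERAP1 lacked the call with SRF siRNA in R1881 and with R1881 in silenced cells. Another one of TAPBP lacked it with R1881 in silenced cells and with SRF siRNA in vehicle. TAP2 had 6.81, 6.61 and 6.42 in SRF-silenced R1881 cells, 5.88, 6.01 and 5.77 in SRF-silenced vehicle cells, 4.33, 3.66 and 3.68 in control R1881 cells and 5.06, 4.55 and 4.49 in control vehicle cells. The groups did not overlap, and both SRF-silenced groups were the higher ones. R1881 changed TAP2 by 0.73 ± 0.19 (SE) in silenced and by -0.81 ± 0.19 in control cells, and the difference was 1.54 ± 0.27 (limma adjusted p = 0.00163). In control R1881 cells 2 of the 3 arrays were below a log2 value of 4, where a fold change depends on the background estimate.

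TAP1, the other subunit of the transporter, had 8.66 ± 0.08 in SRF-silenced R1881, 7.74 ± 0.04 in SRF-silenced vehicle, 7.63 ± 0.08 in control R1881 and 7.46 ± 0.05 in control vehicle cells (SD, n = 3 each), with a difference of 0.75 ± 0.10 (SE). TAPBP, which encodes tapasin, the bridge from the transporter to class I molecules, had a difference of 0.85 ± 0.13 (SE), and its second probe set one of 0.77 ± 0.34, which did not pass (limma adjusted p = 0.149). ERAP1, which trims peptides in the endoplasmic reticulum, had a difference of 0.56 ± 0.15 (SE, limma adjusted p = 0.0164), whereas its second probe set gave -0.21 ± 0.28 and did not pass. ERAP2 lay below the filter at 3.17 to 3.46.

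Only 2 of the proteasome members were tested. PSMB10, a catalytic subunit of the immunoproteasome, had a difference of 0.80 ± 0.20 (SE) and PSME1, a subunit of its activator, 0.77 ± 0.15. PSMB10 rose with R1881 in silenced cells, and PSME1 fell with R1881 in control cells. PSMB8 lay below the filter at 1.89 to 2.02. PSMB9 was below it on all but 1 array, at 3.74, 3.83 and 4.43 on the SRF-silenced R1881 arrays. In a fit without the filter its R1881 effect in silenced cells was 1.82 (limma adjusted p = 9.6e-06), measured against a level near background in the other groups. The constitutive subunits that the immunoproteasome replaces, PSMB5, PSMB6 and PSMB7, were all tested, and none passed for the difference.

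Among class I genes all 5 HLA heavy chain genes tested had a difference above 0, and beta-2-microglobulin did not. HLA-B had 11.16, 10.96 and 11.10 in SRF-silenced R1881 cells, 10.78, 10.75 and 10.62 in SRF-silenced vehicle cells, 10.72, 10.67 and 10.70 in control R1881 cells and 10.93, 11.24 and 11.13 in control vehicle cells. The SRF-silenced R1881 and control vehicle groups overlapped at the top, and the other 2 overlapped below. The difference of R1881 effects was 0.76 ± 0.13 (SE, limma adjusted p = 0.00109) for HLA-B, 0.64 ± 0.11 for HLA-C and 0.56 ± 0.10 for HLA-E. It was 0.69 ± 0.12 for HLA-F and 0.69 ± 0.17 for HLA-G, of whose 4 passing probe sets 2 did not pass the test. HLA probe sets share probes with related transcripts, so the 5 are uncertain as separate genes.

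B2M, which encodes the light chain of every class I molecule, had 13.35, 13.25 and 13.33 in SRF-silenced R1881 cells, 12.87, 12.81 and 12.75 in SRF-silenced vehicle cells, 13.87, 13.98 and 13.96 in control R1881 cells and 13.28, 13.51 and 13.45 in control vehicle cells. R1881 raised it by like amounts, 0.50 ± 0.08 (SE) in silenced and 0.52 ± 0.08 in control cells. Their difference was -0.02 ± 0.11 (limma adjusted p = 0.895).

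The effect of SRF siRNA was then compared under each treatment. In R1881, SRF siRNA raised 27 of 42 members and lowered 6, against 33.6% and 25.4% of all genes, with a median change of 0.38 among the members and 0.06 over all genes. In vehicle it raised 6 and lowered 22, against 30.7% and 25.0% of all genes, with medians of -0.38 and 0.04. With the 2-fold rule 8 members were higher and 3 lower in R1881, against 11.6% of all genes, and 1 was higher and 8 lower in vehicle, against 9.28%. The 6 and the 3 lower in R1881 include GBP1, which passed the filter through control R1881 cells alone, so that its call is no test. In all, 10 members were lower with SRF siRNA in vehicle and higher with it in R1881, namely IFIT1, IFIT2, IFIT3, IRF1, GBP3, IFI6, IFI35, IFI44, HLA-B and HLA-C. That joint pattern held for 143 of all genes, or 1.39%. In the fits that left out 1 array, the call in R1881 was lost in 9 for IFI44 and in 3 each for IFIT2 and IRF1, and the call in vehicle in 6 for HLA-C and 2 for IFI35. With RNA quality as a covariate, the call was lost for IFI44 in R1881 and for IFI35 in vehicle. With the mean of passing probe sets it was lost in R1881 for IFIT2 and IRF1. Tested separately, the passing probe sets of IRF1 and HLA-C did not all give the call in either treatment, nor did those of IFIT2 in R1881.

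In R1881 the largest fitted increases with SRF siRNA were in TAP2, at 2.72 ± 0.19 (SE, limma adjusted p = 2.23e-07), and IFI27, at 2.47 ± 0.24 (limma adjusted p = 2.86e-06). TAPBP followed at 1.29 ± 0.09, TRIM22 at 1.13 ± 0.15 and IFIH1 at 1.11 ± 0.14. The TAP2 value is set against control R1881 arrays of which 2 lay below the filter, so its size and rank are not firm. The same holds for TRIM22, whose control R1881 arrays were near the filter, at 3.60, 4.23 and 4.11. The largest decreases were in GBP2, at -3.26 ± 0.11, SP100, at -1.68 ± 0.14, B2M, at -0.63 ± 0.08, and OASL, at -0.49 ± 0.09, and HERC6, a relative of HERC5, fell by 0.46 ± 0.10 (SE). GBP1 was called lower too, but is not ranked, since it was at background with SRF siRNA and passed the filter through control R1881 cells.

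In vehicle the largest decreases with SRF siRNA were in OASL, at -2.46 ± 0.09 (SE, limma adjusted p = 3.19e-09), IFIT2, at -1.85 ± 0.08, SP100, at -1.64 ± 0.14, GBP3, at -1.35 ± 0.08, and GBP2, at -1.22 ± 0.11. The 6 increases were in TAP2, at 1.19 ± 0.19, IFI27, at 0.82 ± 0.24, TAPBP, at 0.44 ± 0.09, ERAP1, at 0.39 ± 0.10, OAS1, at 0.36 ± 0.13, and TAP1, at 0.28 ± 0.07. The call was lost in 4 of the fits that left out 1 array for OAS1 and in 1 for IFI27, the fit without control vehicle replicate 2. GAPDH 3′ minus 5′ did not overlap between the groups of this comparison. With it as a covariate the call was lost for TAP1 (limma adjusted p = 0.21), TAPBP (limma adjusted p = 0.0773), ERAP1 (limma adjusted p = 0.0967), OAS1 and IFI27, and kept for TAP2. Among the decreases the calls of IFI35 and HLA-G (limma adjusted p = 0.0613) were lost too. The TAPBP call was also lost with the mean of its probe sets. SP100 was lower under both by about equal amounts, and its levels were 5.45 ± 0.29, 5.59 ± 0.07, 7.13 ± 0.22 and 7.23 ± 0.10 (SD, n = 3 each) in SRF-silenced R1881, SRF-silenced vehicle, control R1881 and control vehicle cells.

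**Figure D5:**
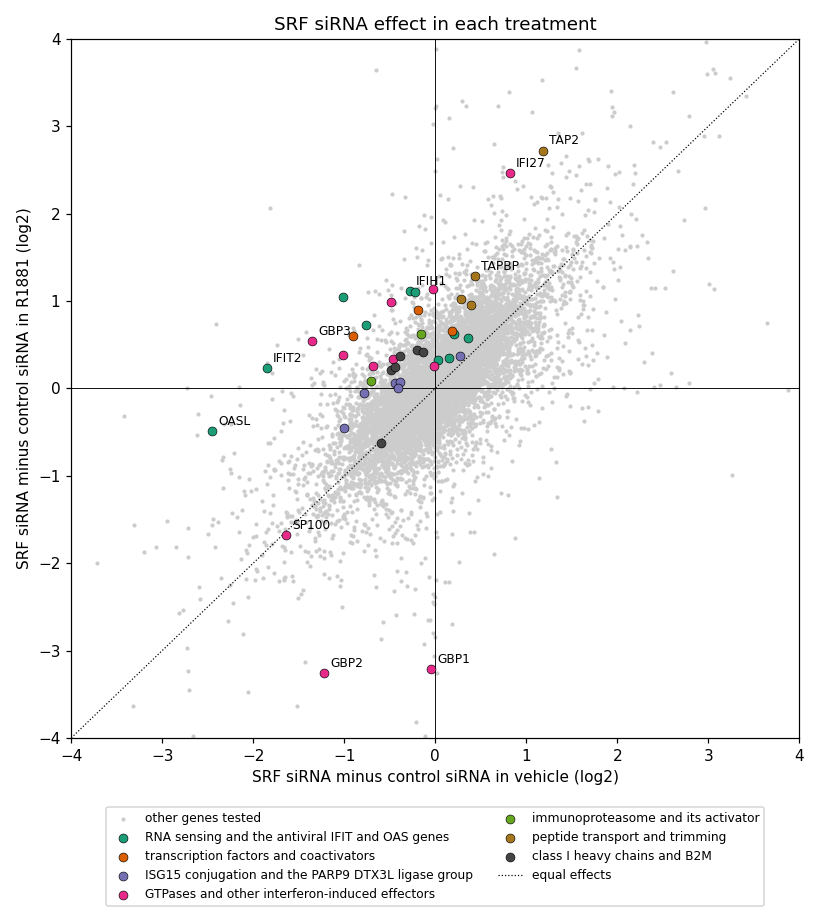
SRF siRNA minus control siRNA on the log2 scale in R1881 (vertical axis) and in vehicle (horizontal axis), with members coloured by role, all other genes tested in grey and points beyond the axes not drawn. Members gather above the line of equal effects, with IFIT2 and OASL at the left and GBP1 and GBP2 at the bottom.

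By group means, 23 of the 42 tested members were highest in SRF-silenced R1881 cells, against 21.1% of all genes, and 14 were highest in control vehicle cells, against 22.5%. The lowest mean was in SRF-silenced vehicle cells for 21 members, against 23.6% of all genes, and in control R1881 cells for 15, against 35.5%, close to the members' share. These ranks share the arrays of the comparisons above and add no independent evidence.

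Measures of RNA quality differed between some of the groups. The GAPDH control probe sets, 3′ minus 5′, gave 0.49 ± 0.14 in SRF-silenced R1881, 0.36 ± 0.04 in SRF-silenced vehicle, 0.46 ± 0.02 in control R1881 and 0.14 ± 0.09 in control vehicle cells (SD, n = 3 each). R1881 and vehicle arrays did not overlap with control siRNA (two-sided exact permutation test, p = 0.1, which no design of 3 against 3 can go below), nor did silenced and control arrays in vehicle (exact p = 0.1). With this measure as a covariate, the members called with R1881 in control cells were 4 higher and 14 lower, against 14.5% and 23.7% of all genes in that fit. Those called with SRF siRNA in vehicle were 1 higher and 21 lower, against 18.5% and 19.9%. For the difference of R1881 effects they were 30 above 0 and 2 below 0, against 11.6% and 7.05%. GBP1 is counted in the 4 and in the 2 below 0, though its fit is no test. The same measure for ACTB was 1.81 ± 0.35 in SRF-silenced R1881, 1.69 ± 0.14 in SRF-silenced vehicle, 1.50 ± 0.02 in control R1881 and 1.37 ± 0.12 in control vehicle cells (SD, n = 3 each). Silenced and control arrays did not overlap in either treatment (exact p = 0.1 each), and ACTB is itself a target of SRF. SRF-silenced R1881 replicate 3 was the highest array in both measures, at 0.64 for GAPDH and 2.21 for ACTB. Without the third array of both silenced groups, 27 members were higher and 1 lower with R1881 in silenced cells, and 29 were above 0 and 2 below 0 for the difference.

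Genes upstream of the members were read from the same fit, from lists that hold no member. No interferon gene with a probe set passed the filter: IFNB1 lay at 2.53 to 3.17, IFNA1 at 2.55 to 2.70, IFNG at 2.30 to 2.36 and IFNL1 at 2.41 to 2.53 on the 12 arrays. The receptor gene IFNAR1 rose with R1881 by 1.05 ± 0.07 (SE) in silenced and 0.61 ± 0.07 in control cells, a difference of 0.44 ± 0.10 (limma adjusted p = 0.00907). IFNGR1 rose by 0.65 ± 0.07 and 0.63 ± 0.07, and IL10RB, a subunit of the interferon lambda receptor, by 1.14 ± 0.14 and 1.22 ± 0.14. The kinase gene JAK2 fell by 0.70 ± 0.13 in silenced and 0.84 ± 0.13 in control cells. Of the 11 genes of this list that were tested, 2 had a difference above 0 and none below 0, a share near that of all genes (13.2% above 0).

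A list of other interferon-stimulated genes was read in the same way. Of 25 tested, 15 had a difference of R1881 effects above 0 and none below 0, with a median of 0.71, against 13.2%, 10.5% and a median of 0.03 over all genes. The 25 include CXCL11, which passed the filter through R1881 arrays alone, and may hold others like it, so these counts are a description. The fitted differences ran from -0.36 to 3.15, and the genes named next do not include the largest. RSAD2, which encodes viperin, had means of 6.07 ± 0.41 in SRF-silenced R1881, 4.62 ± 0.32 in SRF-silenced vehicle, 6.06 ± 0.08 in control R1881 and 6.78 ± 0.24 in control vehicle cells (SD, n = 3 each), and a difference of 2.17 ± 0.29 (SE). CMPK2, its neighbour in the genome, had a difference of 1.94 ± 0.23 (SE). The chemokine gene CXCL11 had 7.23, 7.00 and 6.91 in SRF-silenced R1881 cells, 2.85, 2.48 and 2.32 in SRF-silenced vehicle cells, 6.15, 6.21 and 6.08 in control R1881 cells and 2.85, 3.18 and 3.05 in control vehicle cells, so that both R1881 groups were high. Since it passed the filter through those groups and was near background in vehicle, its fit is no test of the R1881 effects.

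Other antigen presentation genes were divided. Of 11 tested, 2 had a difference above 0 and 5 below 0, with a median of -0.15, against 13.2% and 10.5% of all genes. HLA-DMA, a chaperone of class II molecules, had 5.20, 5.38 and 5.56 in SRF-silenced R1881 cells, 4.94, 4.58 and 4.44 in SRF-silenced vehicle cells, 7.03, 7.22 and 7.11 in control R1881 cells and 5.11, 4.79 and 4.85 in control vehicle cells, a difference of -1.48 ± 0.19 (SE, limma adjusted p = 0.000202). Of 10 genes that sense nucleic acid upstream of interferon, 4 had a difference above 0 and none below 0, against the same shares of all genes.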

How the data were processed

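RNA was measured on 12 arrays. Per the submitters' processing notes, GCRMA made the values, and the authors deposited them as log2 signals, 1 per probe set and array; its version is not given in the sources used here. All 12 columns were matched to groups by their labels. Of 54675 probe sets in all, 62 were controls, 41091 had 1 gene symbol in the platform table used here, 1801 had several and 11721 had none. Probe sets above a log2 value of 4 on at least 3 arrays were kept, and the one with the highest mean stood for a gene. For 10265 genes, limma 3.58.1 in R 4.3.3 fitted 1 mean per group with moderated variances, and calls were made at an adjusted p under 0.05 (Benjamini-Hochberg over all genes). The array number limits the precision. The fit was tested on simulated data. RNA quality was compared by exact permutation. Motifs were searched in RefSeq promoters; the CArG box was added after the data were seen. The members and gene lists were chosen with earlier results of these data known, and no test over a list was run. Members named with values were the 5 called with the largest change in each direction of each comparison, the largest and smallest difference in each role group, and those called in opposite directions; the other members and the genes of the pathway lists follow by role. Deviations of same-numbered arrays correlated at -0.21 to 0.10 (median 0.01 over 18 pairs), and those of differently numbered arrays at -0.07 to 0.21 (median -0.01 over 36 pairs). With 3 arrays per group this cannot show whether the replicate numbers pair the arrays, and the main fit used no pairing.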

Additional observations from a re-analysis of the deposited data

Results flagged for a closer look

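A direct test of the difference between the R1881 effects of SRF-silenced and control siRNA cells was past its threshold for 34 members (limma adjusted p under 0.05). It was higher after silencing for 32 members and lower for 2, GBP1 among them. All values are log2 differences, SRF-silenced minus control.

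Among the antiviral and RNA sensing genes the difference was 2.08 for IFIT2, 2.06 for IFIT3, 1.96 for OASL, 1.49 for IFIT1, 1.39 for IFIH1, 1.32 for OAS3 and 0.42 for EIF2AK2. Among the transcription factors it was 1.5 for IRF1, 1.09 for IRF9 and 0.48 for IRF7. In the ISG15 and PARP9 group it was 0.74 for PARP9, 0.55 for HERC6, 0.51 for DTX3L and 0.41 for ISG15.

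Among the GTPases and other effectors the difference was 1.9 for GBP3, 1.65 for IFI27, 1.48 for IFI35, 1.39 for IFI44, 1.16 for TRIM22, 0.95 for SAMD9 and 0.81 for IFI6. It was -2.04 for GBP2. The fitted value of -3.16 for GBP1 is a description and no test, since GBP1 passed the filter through the control R1881 arrays alone and was at background in the other 3 groups.

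In antigen presentation the difference was 1.54 for TAP2, 0.85 for TAPBP, 0.75 for TAP1, 0.56 for ERAP1, 0.8 for PSMB10 and 0.77 for PSME1. Among the class I heavy chains it was 0.76 for HLA-B, 0.69 for HLA-F, 0.69 for HLA-G, 0.64 for HLA-C and 0.56 for HLA-E.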

How the results depend on the processing

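The alternatives varied the call rule, filter, floor, normalization, variance model, choice of probe set and arrays. The counts below include GBP1 wherever it was called, though its fit is no test. With a 2-fold minimum added, the members called with R1881 were 3 higher and 2 lower in control cells and 11 higher in SRF-silenced cells. The difference of effects then held 14 members above 0. With SRF siRNA they were 8 higher and 3 lower in R1881, and 1 higher and 8 lower in vehicle. With the GAPDH 3′ minus 5′ measure as a covariate, 4 members were higher with R1881 in control cells and 1 was higher with SRF siRNA in vehicle, and TAP1 with R1881 in control cells reversed, at -0.0076 (limma adjusted p = 0.97); the cause was not tested.

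Leaving out each array in turn gave 30 to 33 members higher and 1 lower with R1881 in silenced cells, 7 to 9 higher and 20 to 21 lower in control cells, and 28 to 31 above 0 and 2 below 0 for the difference. With SRF siRNA it gave 23 to 27 higher and 6 lower in R1881 and 5 to 7 higher and 20 to 23 lower in vehicle. The replicate block gave 32 members above 0 and 2 below 0 for the difference, and 7 higher and 21 lower with R1881 in control cells. Over the alternatives other than the stricter call rules, the calls kept throughout were 28 of 33 for R1881 in silenced cells, 18 of 29 for R1881 in control cells and 29 of 34 for the difference. They were 28 of 33 for SRF siRNA in R1881 and 20 of 28 in vehicle. Of the 20 members with several passing probe sets, none had opposite calls for 2 of them in any comparison. One probe set was called and another not for 5 of them in each R1881 comparison and in the difference, 9 for SRF siRNA in R1881 and 7 in vehicle. Values near 2 to 3 are background, so members below the filter and the low levels of GBP1, TAP2 and TRIM22 have no firm fold change.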
